A study of Acomys cahirinus and Mus musculus with 10 samples.

Results

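*A2m* encodes alpha-2-macroglobulin, a large secreted inhibitor of proteinases. Its transcript was followed in healing ear tissue of the spiny mouse *A. cahirinus*, which closes ear holes with regenerated tissue, and of *M. musculus* (outbred CD1 mice), which heals them with a scar. It is 1 gene of 12313 that could be paired between the species with a value on every day. The gene was taken as component comp461775_c8 of the *A. cahirinus* assembly and as gene number 24197 of the *M. musculus* reference, and it was chosen by its measured values, the log2 changes after injury, which had opposite directions in the species. Its levels and changes are therefore a description and are given without a test. All animals were sexually mature females. The D0 groups were uninjured ear tissue, and the D5, D10, D15 and D20 groups were a ring of tissue close to the healing margin of a 4-mm punch through the ear, called regenerating in *A. cahirinus* and fibrotic in *M. musculus* by the labels. The study states 3 animals for each of the 10 groups.

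Alpha-2-macroglobulin is known for trapping proteinases of all classes. A proteinase cuts the exposed bait region of the inhibitor, which closes around the enzyme and lays open an internal thiol ester that can bind it covalently. The trapped complex is cleared by cells that carry the receptor LRP1, and the inhibitor also binds growth factors and cytokines such as TGF-beta and interleukin 6. In rats the protein is made by the liver in the acute phase of inflammation. In mice its murine relatives, the murinoglobulins, are encoded beside the gene followed here.

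In the mouse genome (build GRCm38) *A2m* (ENSMUSG00000030111) lies on the plus strand at chr6:121635376-121679227, and its longest annotated transcript has 36 exons. The *M. musculus* reference held 1 *A2m* transcript of 4671 bases, with an open reading frame of 1474 codons. The *A. cahirinus* component held 8 assembled sequences of 899 to 4666 bases, with a longest reading frame of 1441 codons. Aligned over the reading frame, 3702 of 4305 bases were the same, an identity of 86.0%. Both reading frames hold the codons of the thiol ester site, as did 4 of the 8 assembled *A. cahirinus* sequences. The site is shared within the family of thiol ester proteins, so it does not by itself show which member the component is. The codons of the site itself are in capitals, and 71 of the 75 bases shown were the same in the species.
*A. cahirinus* thiol ester: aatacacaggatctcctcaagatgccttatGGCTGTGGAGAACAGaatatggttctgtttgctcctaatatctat
*M. musculus* thiol ester: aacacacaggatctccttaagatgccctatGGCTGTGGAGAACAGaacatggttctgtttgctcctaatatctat

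The bait region was less alike than the reading frame as a whole, with an identity of 68.8% over 93 aligned bases. Of 46 windows of that length along the reading frame, 0 had a lower identity. Gaps were not counted, and windows with few aligned bases were left out. The bait region is shown because it is the stretch that proteinases cut, with the bait codons in capitals, 102 bases in *A. cahirinus* and 93 in *M. musculus*.
*A. cahirinus* bait region: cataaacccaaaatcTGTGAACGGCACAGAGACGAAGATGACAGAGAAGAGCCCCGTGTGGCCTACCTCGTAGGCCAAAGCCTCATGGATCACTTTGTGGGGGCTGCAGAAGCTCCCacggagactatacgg
*M. musculus* bait region: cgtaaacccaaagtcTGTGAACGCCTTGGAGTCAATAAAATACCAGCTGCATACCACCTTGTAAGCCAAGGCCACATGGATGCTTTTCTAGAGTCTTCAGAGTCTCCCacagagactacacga

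The family has several closely related members, so windows shared exactly with other sequences were counted. Of the 4622 windows of 50 bases (the read length) in the *M. musculus* transcript, 0 occurred in any other transcript of the reference, on either strand. In *A. cahirinus*, 0 of 5850 windows occurred in another assembled component. That count cannot show whether reads were shared, because the assembly itself groups overlapping sequences into the same component. In both species only exact windows were counted, which leaves out reads placed with mismatches. Whether reads of other family members were counted for *A2m* was therefore not tested.

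In *A. cahirinus*, *A2m* was higher after injury on every day. Its mean normalized count per library was 144 in uninjured ear, and then 462, 534, 474 and 579 on the 4 later days in order. The levels after injury were 3.2 to 4.02 times that of uninjured ear. The 95% counting interval was 131 to 159 at D0, and the intervals of the later days ran from 438 to 607 in all. The level at D20 was 1.26 times that at D5, so that most of the rise was present at the first time point sampled. Counting intervals leave out the spread between animals, for which no values were used here, so they give the precision of a mean and are no support for a difference between groups. A mean over libraries moves in steps of 1 read in 1 library, and the low means of a group showed 3 such steps in 9 groups, 1 for each library. In the D15 group of *A. cahirinus* they showed 2 steps, as for 2 libraries, although 3 animals are stated, and its interval was computed for 2.

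In *M. musculus* the order was the reverse. The mean normalized count was 599 in uninjured ear, and then 29.1, 41.5, 46.9 and 83.7 on the 4 later days. The levels after injury were thus 4.86%, 6.94%, 7.84% and 14% of the uninjured level. The D20 level was 2.88 times that at D5. The counting intervals were 571 to 627 at D0, 23.2 to 35.8 at D5 and 73.6 to 94.7 at D20.

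**Figure D1:**
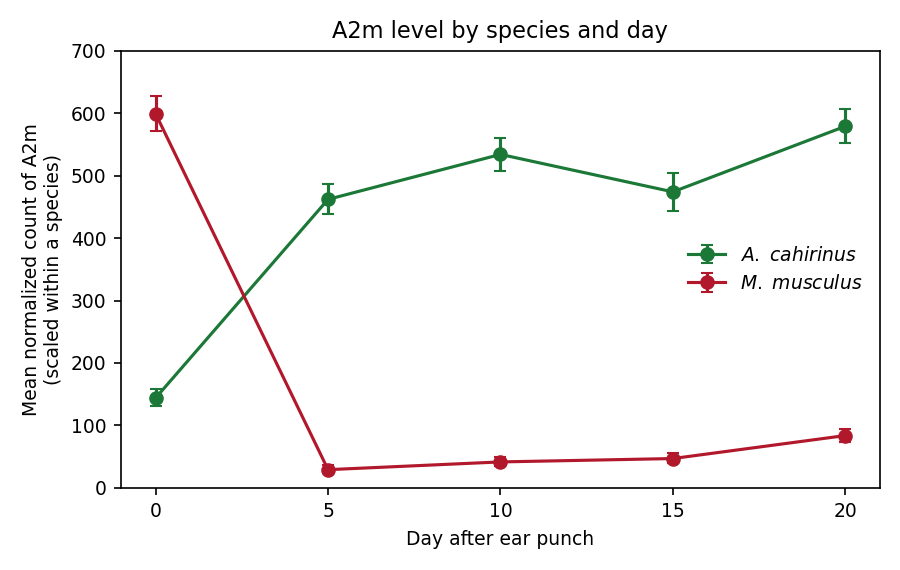
Mean normalized count of *A2m* (vertical axis, scaled within a species) by day after the ear punch (horizontal axis) in *A. cahirinus* (green) and *M. musculus* (red). Points are group means and bars are 95% counting intervals, which leave out the spread between animals. The *A. cahirinus* mean goes from 144 to 579 and the *M. musculus* mean from 599 to 29.1 and back to 83.7.

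The counts were normalized within a species, so levels were compared between species by their rank among the 12313 paired genes, per kb of transcript. In *A. cahirinus* *A2m* stood at 30.9 counts per kb at D0, above 29% of paired genes, and at 98.9, 114, 102 and 124 counts per kb on the later days, above 59.8%, 70%, 67.3% and 76.9% of them. In *M. musculus* it stood at 128 counts per kb at D0, above 77% of paired genes, and at 6.23, 8.89, 10 and 17.9 counts per kb afterwards, above 13.2%, 14.9%, 15.8% and 23%. By this rank the uninjured *M. musculus* ear and the D20 *A. cahirinus* ear were alike. In tissue measured in bulk, a change in the number of cells that make the transcript and a change in transcript per cell cannot be told apart.

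Expressed as a log2 change against D0, *A2m* in *A. cahirinus* was 1.68 ± 0.08, 1.89 ± 0.07, 1.72 ± 0.08 and 2.01 ± 0.08 from D5 to D20 (± counting error only). In *M. musculus* it was -4.36 ± 0.16, -3.85 ± 0.12, -3.67 ± 0.13 and -2.84 ± 0.09. The deposited posterior probability of differential expression was 1 in all 8 comparisons. A probability of at least 0.95 was counted as a call. For scale, 42.6%, 33.2%, 33.2% and 28.3% of paired genes were called at D5, D10, D15 and D20 in *A. cahirinus*, against 41.1%, 39.9%, 35.3% and 33.6% in *M. musculus*.

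The median log2 change over paired genes was 0.20, 0.10, 0.03 and -0.04 in *A. cahirinus*, against 0.04, 0.05, 0.04 and 0.03 in *M. musculus*. Among the 10935 paired genes whose mean reached 10 in 1 group or more of each species, 585 had a larger change than *A2m* in *A. cahirinus* at D5 and 199 at D20. Without the least mean, these counts were 749 and 316 of 12313. The fall in *M. musculus* lay further out, with 9, 15, 18 and 78 genes lower than *A2m* on the 4 days, or 70, 60, 76 and 139 without the least mean.

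**Figure D2:**
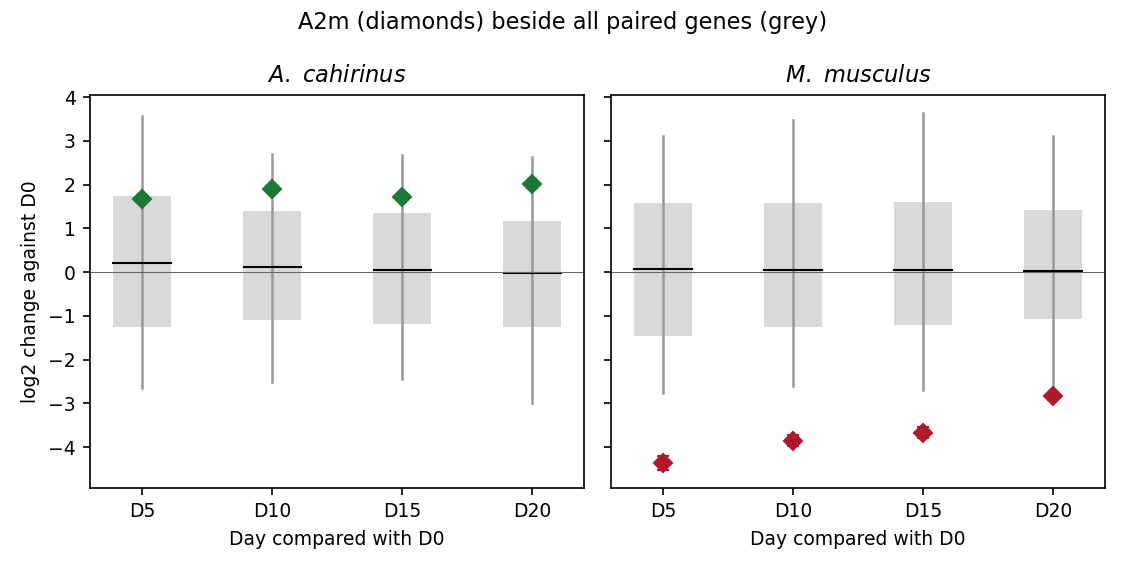
Log2 change of *A2m* against D0 (diamonds, ± counting error) by day in each species, beside the 10935 paired genes whose mean reached 10. Grey bars span the 5th to 95th percentile, thin lines the 1st to 99th, and black lines mark the median. In *M. musculus* *A2m* lies below the 1st percentile on all 4 days, and in *A. cahirinus* it lies above the 95th percentile on D10, D15 and D20.

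Averaged over the 4 days, the log2 change was 1.82 in *A. cahirinus* against -3.68 in *M. musculus*, a difference of 5.50. A larger difference was found for 5 of the 10935 genes, and for 48 of all 12313 paired genes, where low means are included. The 5 were *Gucy2f* (7.44), gene number 28786, which was not named (7.16), *Penk* (5.86), *Myh3* (5.83) and *Tll2* (5.67), listed here after their values were seen. None of these was called on all 8 comparisons. *A2m* was, but it was chosen by its changes in the same comparisons, so its calls do not set it apart. *Tll2* was called once in *M. musculus* and not at all in *A. cahirinus*, at means of at most 10.6.

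Few genes combined calls in opposite directions over the whole time course. In *A. cahirinus* 942 of 10935 genes (8.61%) were called higher on all 4 days and in *M. musculus* 1163 (10.6%) were called lower on all 4 days. Both held for 15 genes (0.137%), and the converse held for 8. *A2m* was 1 of the 15 by its choice, and its difference of 5.50 compares with 0.91 to 3.42 for the others. *Cd109*, a membrane-bound relative of *A2m*, was also among the 15, with a difference of 1.23. So was *Serpina3h*, of the serpin family of proteinase inhibitors, with a difference of 2.28, named here after its values were seen. *Serpina3n* had no placed number and could not be paired. Whether the component belongs to *Serpina3h* or to another gene of that family was not tested.

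**Figure D3:**
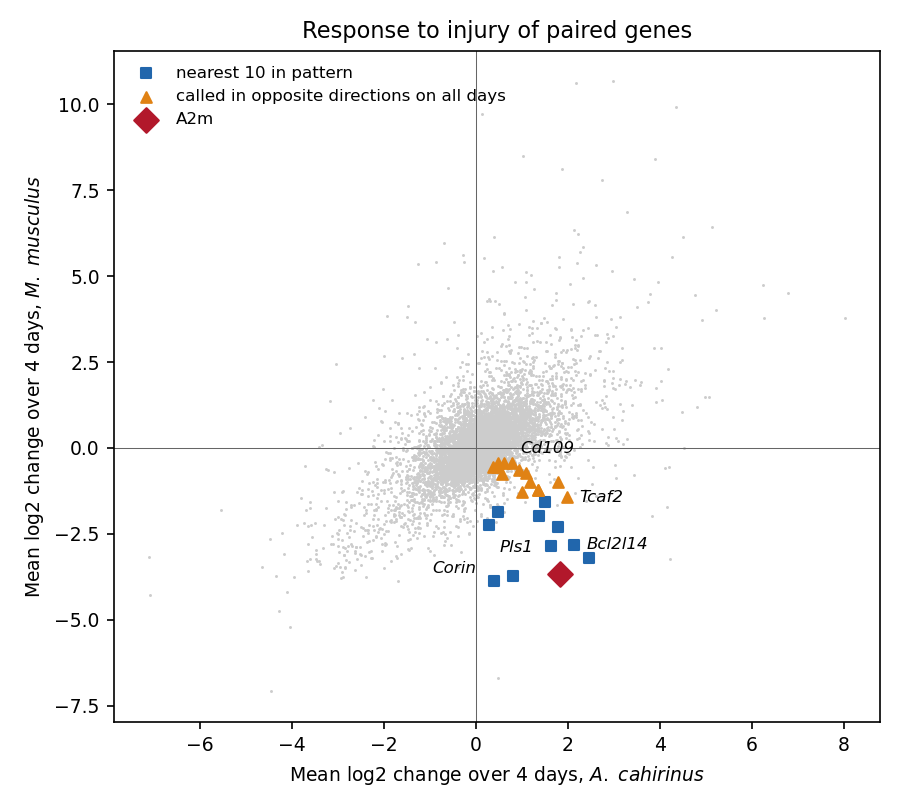
Mean log2 change over 4 days in *A. cahirinus* (horizontal axis) and *M. musculus* (vertical axis) for the 10935 paired genes whose mean reached 10 (grey). *A2m* (red diamond) lies at 1.82 and -3.68. Blue squares are the 10 genes nearest to it in pattern and orange triangles the other genes called higher on all days in *A. cahirinus* and lower on all days in *M. musculus*.

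The genes with the most similar pattern were found by the distance between their 8 log2 changes and those of *A2m*, a description over 8 comparisons that share a D0 group within each species. The nearest was *Pls1* (distance 1.94), which encodes the actin-bundling protein plastin 1. Its mean was 5.52 at D0 against 18.9 at D10 in *A. cahirinus*, where 1 of 4 days was called. In *M. musculus* it was 80.6 against 11.3, and all 4 days were called. *Bcl2l14* (2.48), of the BCL2 family, and *Tll2* (2.65), an astacin metalloproteinase, came next. *Corin* (3.05), a transmembrane serine proteinase made by dermal papilla cells, was the fourth, with a mean of 1480 at D0 and 78.8 at D10 in *M. musculus*. Its *A. cahirinus* means were 37 and 75.6, not called on any day. The remaining 6 were *Npy1r*, *Pcdh9*, *Blcap*, *Lctl*, *Fam221b* and *Dpep3*, at distances of 3.63 to 4.60. Of the 10, *Pcdh9* alone was called on all 8 comparisons, and its D5 change in *A. cahirinus* was -0.40.

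The relatives of *A2m* belong to the family of thiol ester proteins, although complement C5 itself lacks the bond, and include membrane-bound CD109, the complement proteins C3, C4 and C5, and the macroglobulins PZP, A2ML1 and the murinoglobulins. *Cd109* had the same pair of directions at a smaller size. Its mean was 1534 at D0 and 2225, 2805, 2790 and 2818 on the later days in *A. cahirinus*. In *M. musculus* it was 3058 at D0 and 2403, 2203, 2160 and 2216 afterwards, and all 8 comparisons were called. *C4b*, the complement protein C4, had a mean of 801 at D0 and 1360, 2617, 2337 and 1035 afterwards in *A. cahirinus*, higher with a call at D5, D10 and D15. In *M. musculus* its mean was 2185 at D0 and 1478, 1326, 1123 and 1358 afterwards, lower with a call on all 4 days. *C3*, the central complement protein, had a mean of 931 at D0 and 3651 at D5 in *A. cahirinus*, called at D5 and D20. In *M. musculus* its mean was 2082 at D0 and 687 at D15, called at D15 and D20. Its log2 change of 1.66 at D10 in *A. cahirinus* had a probability of only 0.0905.

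*Hc*, which encodes complement C5, went against this pattern. In *M. musculus* its mean was 7.38 at D0 and 29.3, 60.8, 72.7 and 72.5 afterwards, called higher at D15 and D20, whereas the *A. cahirinus* component had a mean of at most 0.868 in every group. Of the 8 relatives, 5 had a reciprocal component in *A. cahirinus*, and 3, 2, 2 and 2 of these were called higher at D5, D10, D15 and D20, with none lower. With the best component taken one way, without asking for a reciprocal best hit, the relatives called lower over the 4 days went from 0 to 2. Paired genes were called higher in 31.1%, 21.3%, 18.5% and 13.0% of cases and lower in 11.5%, 11.9%, 14.7% and 15.3%. In *M. musculus* 2, 2, 3 and 3 of 7 or 8 measured were called lower and 0, 0, 1 and 1 higher, against 17.6%, 18.3%, 16.8% and 16.3% of paired genes lower and 23.5%, 21.7%, 18.5% and 17.3% higher. Over all *M. musculus* gene numbers, paired or not, 13.6%, 14.1%, 12.5% and 11.9% were called lower and 16.5%, 15.1%, 13.2% and 12.3% higher. The median log2 change of the members above a mean of 1 was 0.76, 1.66, 0.86 and 0.52 in *A. cahirinus*, against -0.35, -0.47, -0.50 and -0.46 in *M. musculus*.

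The murinoglobulin genes *Mug1* and *Mug2* follow *A2m* in the numbering and were near the limit of detection in *M. musculus*. *Mug1* was listed at 0 at D0 and had a mean of at most 0.754 afterwards, and *Mug2* stood at 0.328 at D0 and at most 0.757 afterwards. *A2ml1* had a mean of at most 1.21 and *Pzp* of at most 0.261 in the *M. musculus* groups that list them. *A2m* thus held most of the counts of these macroglobulin genes in the *M. musculus* ear, and adding *Mug1*, *Mug2* and *Pzp* to it in that species moved the species difference from 5.50 to 5.47.

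In *A. cahirinus* 7 short components had a murinoglobulin as best match. Their summed mean was 32 at D0 and 6.01, 9.23, 3.06 and 2.3 on the later days. The sum was thus lower on the days on which *A2m* was higher, with log2 changes of -2.41, -1.79, -3.39 and -3.80. Singly, 2 of the 7 were called lower on at least 1 day and 0 higher. Over all components of the assembly 0.978%, 0.880%, 1.11% and 0.900% were called lower on the 4 days and 1.78%, 1.28%, 1.33% and 0.948% higher. These shares are for single days, whereas the count of 2 is over any of the 4 days, so they are unlike measures. The longest of the 7, comp430300_c2 with 789 bases, had a mean of 13.9 at D0 and of 0.974 at D20, called at D15 and D20. The other, comp461775_c4 with 506 bases, comes from the same assembly graph as the *A2m* component and had a mean of 7.4 at D0 and of 0.33 at D15, the day it was called. With these components added to *A2m* in *A. cahirinus*, and *Mug1*, *Mug2* and *Pzp* in *M. musculus*, the species difference was 5.19, a sum chosen after the data were seen.

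The receptor list is short and holds the chaperone genes *Lrpap1* and *Hspa5* beside *Lrp1*, *Lrp1b* and *Lrp2*. In *A. cahirinus* 3 of its genes were measured, and 3, 3, 2 and 1 were called higher at D5, D10, D15 and D20. In *M. musculus* 5 were measured, and 2, 3, 3 and 2 were called higher. Of paired genes, 31.1%, 21.3%, 18.5% and 13.0% were called higher in *A. cahirinus*, with 23.5%, 21.7%, 18.5% and 17.3% in the other species. None of the listed genes was called lower, where 11.5% to 18.3% of paired genes were, a share that leaves 0 of so few near the background. *Lrp1*, which takes up the complex of inhibitor and proteinase, had a mean of 11855 at D0 and 20216, 15634, 13929 and 12199 afterwards in *A. cahirinus*. In *M. musculus* its mean was 8599 at D0 and 12882, 13736, 14365 and 16374 afterwards. Its log2 change in *A. cahirinus* was 0.77 at D5 and 0.04, without a call, at D20. In *M. musculus* it went from 0.58 at D5 to 0.93 at D20, with a call on every day. *Lrpap1*, the chaperone of this receptor, was called higher at D5 and D10 in *A. cahirinus* (0.45 and 0.27), whereas in *M. musculus* the called days were D10 and D15 (0.40 and 0.47). *Hspa5*, which encodes the chaperone GRP78, also described as a cell-surface receptor of the activated inhibitor, was called higher on all 4 days in both species (log2 1.49, 1.19, 0.88 and 0.68 against 0.94, 0.80, 0.90 and 0.46). *Lrp1b* (19.1 at D0) and *Lrp2* (0.37 at D0) were low in *M. musculus* without a call, and had no reciprocal component in *A. cahirinus*. The median of the 3 genes of the list in *A. cahirinus* was 0.77, 0.40, 0.23 and 0.04. In *M. musculus* the median of the 4 at D5 and 5 later above a mean of 1, with lower means set to 1, was 0.36, 0.61, 0.47 and 0.46.

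**Figure D4:**
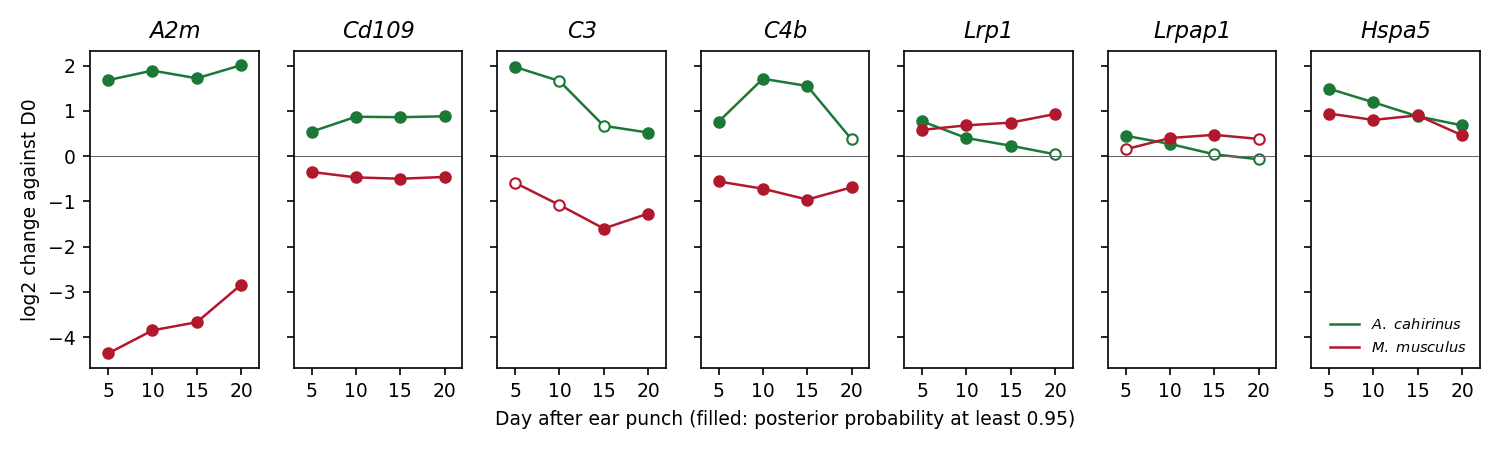
Log2 change against D0 (vertical axis) by day after the ear punch for *A2m*, the relatives *Cd109*, *C3* and *C4b*, and *Lrp1*, *Lrpap1* and *Hspa5* of the receptor list, in *A. cahirinus* (green) and *M. musculus* (red). Filled points have a posterior probability of at least 0.95. The species diverge for *A2m* and the relatives shown, although *C3* and *C4b* were not called on every day. *Hc*, which went against this pattern, is not shown. *Lrp1* and *Hspa5* are above 0 in both species.

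Most of the proteinase genes measured were called higher in both species, alongside a higher *A2m* in *A. cahirinus* but a lower one in *M. musculus*. Of 22 genes listed, 14 had a component in *A. cahirinus*, of which 9, 10, 10 and 10 were called higher at D5, D10, D15 and D20 and 2, 0, 0 and 1 lower. In *M. musculus* 12, 12, 10 and 10 of 15 were called higher and 0 lower. The shares of paired genes called higher were 31.1%, 21.3%, 18.5% and 13.0% in the former and 23.5%, 21.7%, 18.5% and 17.3% in the latter. Those called lower were 11.5%, 11.9%, 14.7% and 15.3%, and 17.6%, 18.3%, 16.8% and 16.3%. The median log2 change was 1.15, 1.53, 1.48 and 1.24 in *A. cahirinus*, and in *M. musculus*, with means below 1 set to 1, 1.98, 2.27, 2.05 and 1.93. *Mmp13*, collagenase 3, had a mean of 4.95 at D0 and 461, 744, 342 and 174 afterwards in *A. cahirinus*. In *M. musculus* its mean was 1.46 at D0 and 46.5, 62.1, 58 and 14.4 afterwards, and it was called on every day but D20 in that species. *Plau*, urokinase, had the smallest mean change among *M. musculus* members, with log2 values of 0.87, 0.49, 0.24 and 0.13, the last pair without a call. *F2*, prothrombin, was the lowest in *A. cahirinus*, with means of 4.97 to 12.7 and no call. *Mmp9* was not among the named *M. musculus* numbers and was not analysed here.

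Among other proteinase inhibitors, calls were found in both directions. In *A. cahirinus* 4, 6, 5 and 2 of 19 measured were called higher and 7, 4, 5 and 4 lower, and in *M. musculus* 6, 8, 7 and 5 of 22 were called higher and 7, 7, 4 and 3 lower. With 31.1%, 21.3%, 18.5% and 13.0% of paired genes called higher and 11.5%, 11.9%, 14.7% and 15.3% lower in the former, and 23.5%, 21.7%, 18.5% and 17.3% and 17.6%, 18.3%, 16.8% and 16.3% in the latter, several of these counts were near the background. The median log2 change was -0.13, 0.02, -0.05 and -0.22 in *A. cahirinus*, against -0.12, -0.11, -0.10 and 0.19 in *M. musculus*. The 19 include *Cst3*, whose component had 99.5% identity to the mouse sequence and means of 0.338 to 3.74, without a call. *Slpi*, an inhibitor of neutrophil elastase, was the highest in *A. cahirinus* (42.2 at D0 and 3658 at D5) and went from 3.14 to 271 in *M. musculus*. *Tfpi2*, a Kunitz-type inhibitor, was the highest in *M. musculus* (0.37 at D0 and 20.7 at D5). *Timp3*, a matrix-bound metalloproteinase inhibitor, was lower with a call on all 8 comparisons, with a mean of 2989 at D0 against 803 at D5 in *A. cahirinus*, while the *M. musculus* mean was 5310 against 2431. *Timp4*, of the same family, came closest in size to *A2m* in *M. musculus*, with log2 changes of -3.28, -2.48, -2.19 and -1.16, but it was lower in *A. cahirinus* as well (-1.58, -1.93, -1.32 and -1.69). *Serpina3n* was not analysed here.

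Interleukin 6 acting through STAT3 is the textbook inducer of *A2m* in rat liver, and both *Il6* and *Stat3* were called higher at D5 in both species. *Il6* had a mean of 9.12 at D0 and 164, 43.4, 44.5 and 29.6 afterwards in *A. cahirinus*, called on all 4 days. In *M. musculus* its mean was 0.698 at D0 and 10.4, 4.95, 15.9 and 2.77 afterwards, called at D5 and D15. *Stat3* had log2 changes of 1.24, 0.83, 0.59 and 0.42 in *A. cahirinus*, against 1.15, 0.73, 0.53 and 0.35 in *M. musculus*, called on all but D15 in the latter. *Il11*, a related cytokine, went from 1.43 to 28.8 at D5 in *A. cahirinus* with a call, whereas in *M. musculus* it stood at 26.6 and 39.4 without one. Among receptor genes, *Il6ra* was lower in *M. musculus* on all 4 days (-0.65, -1.20, -1.23 and -1.15) and was not called in *A. cahirinus* (0.37 to -0.25). *Lifr* was lower with a call on all 8 comparisons. The receptor gene *Osmr* was called higher on all 4 days in *A. cahirinus* (0.79, 1.07, 0.80 and 0.73) and at D5 in *M. musculus* (0.65). *Il11ra1* was called lower at D5 (-0.77) and higher at D15 and D20 (0.51 and 0.61) in *A. cahirinus*. In *M. musculus* it was called higher at D10 and D20 (0.84 and 1.29). *Il6st* stayed within -0.46 to 0.25 in both species. It was called higher at D5 (0.25) and lower at D15 and D20 (-0.26 and -0.46) in *A. cahirinus*. In *M. musculus* it was called lower at D10 and D15 (-0.12 and -0.17). Of 16 measured genes of the pathway, 13, 6, 7 and 5 were called higher and 2, 1, 3 and 4 lower in *A. cahirinus*, with medians of 1.02, 0.60, 0.48 and 0.44. In *M. musculus* 10, 5, 2 and 3 of 16 were called higher and 2, 3, 3 and 3 lower, with medians of 0.61, 0.20, 0.46 and 0.20. Of paired genes, 31.1%, 21.3%, 18.5% and 13.0% were called higher in the former and 23.5%, 21.7%, 18.5% and 17.3% in the latter, so that the *M. musculus* counts higher at D15 and D20 were near the background. The shares called lower were 11.5% to 15.3% in the former and 16.3% to 18.3% in the latter, and most of the counts lower were near them. *Socs3* was not analysed here.

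The growth factors and cytokines known to bind the inhibitor had calls in both directions. In *A. cahirinus* 5, 3, 3 and 3 of 11 were called higher and 1, 2, 2 and 2 lower, and in *M. musculus* 5, 2, 3 and 2 of 12 were called higher and 1, 0, 0 and 2 lower. Beside 31.1%, 21.3%, 18.5% and 13.0% of paired genes higher and 11.5% to 15.3% lower in the former, and 23.5%, 21.7%, 18.5% and 17.3% higher and 16.3% to 18.3% lower in the latter, most of these counts were near the background. The medians were 0.14, 0.10, -0.23 and -0.01 in *A. cahirinus*, against 0.54, 0.28, 0.23 and -0.08 in *M. musculus*. *Tgfb1* had a mean of 113 at D0 and 264, 232, 198 and 214 afterwards in *M. musculus*, called on every day, and no reciprocal component in *A. cahirinus*. *Fgf2* was lower in *A. cahirinus* with a call from D10 (-0.83, -1.03 and -0.69), and in *M. musculus* it was called at D20 alone (-1.16). *Bdnf* was not called on any day in either species.

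Acute-phase genes had their highest median at D5 in both species. The *A2m* means in *A. cahirinus* were 462, 534, 474 and 579 from D5 to D20, given without a spread between animals. Whether *A2m* follows the acute-phase genes was not tested. In *A. cahirinus* 7, 4, 3 and 1 of 6 or 7 measured were called higher and 0, 0, 1 and 1 lower, and in *M. musculus* 4, 4, 3 and 3 of 7 or 8 were called higher and 1 lower on each day. The paired-gene shares called higher were 31.1%, 21.3%, 18.5% and 13.0%, and 23.5%, 21.7%, 18.5% and 17.3%. Those called lower were 11.5% to 15.3%, and 16.3% to 18.3%, so that 1 gene lower was near the background. With means below 1 set to 1, the medians were 3.60, 1.66, 0.62 and 0.20 in *A. cahirinus*, against 2.23, 0.77, 1.27 and 0.68 in *M. musculus*. *Lcn2*, lipocalin 2, had a mean of 11.2 at D0 and 253, 76.7, 30.9 and 15.5 afterwards in *A. cahirinus*, called at D5, D10 and D15. In *M. musculus* it was 9.46 at D0 and 30.9 at D5, not called on any day. *Saa3*, serum amyloid A3, was listed at 0 at D0 in both species and reached 14.8 at D5 in *A. cahirinus*, while the *M. musculus* mean was 121. *Cp*, ceruloplasmin, was called in opposite directions at D5, with a log2 change of 1.24 in *A. cahirinus* while that of *M. musculus* was -1.45. At D20 it was lower with a call in both (-0.66 and -1.06).

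Markers of other cell types that the tissue ring could hold also changed with injury, and their part in the *A2m* values was not tested. Counts of marker calls stand beside the shares of paired genes called, which in *A. cahirinus* were 31.1%, 21.3%, 18.5% and 13.0% higher and 11.5%, 11.9%, 14.7% and 15.3% lower on the 4 days. In *M. musculus* they were 23.5%, 21.7%, 18.5% and 17.3% higher and 17.6%, 18.3%, 16.8% and 16.3% lower. Liver markers, for the organ where the protein is best known, were not called higher on any day in either species. In *A. cahirinus* 3 of 11 were measured, and their summed mean was 481 at D0 and 208 to 307 afterwards. *Alb*, serum albumin, made up most of it (428 at D0) and was called lower on all 4 days, and *Cps1*, a urea cycle enzyme, had 31 at D0 and no call. In *M. musculus* 8 or 9 were measured, with a sum of 33.4 at D0 and 14.4 to 21 afterwards, and *Apoa2* and *Fgb* were listed at 0 at D0. *Apob*, the core protein of low-density lipoprotein, had 19.3 at D0 and was called lower at D10 alone. With means below 1 set to 1 the hepatocyte medians were -0.67, -1.20, -1.17 and -1.48 in *A. cahirinus*, against -0.55, -0.34, -0.91 and -0.87 in *M. musculus*.

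Skeletal muscle, fat and Schwann cell markers were mostly lower after injury in both species, alongside a lower *A2m* in *M. musculus* but a higher one in *A. cahirinus*. None of them was at 0 at D0. The summed muscle markers were 62507 at D0 and 6841 to 11825 afterwards in *A. cahirinus*, where 5 of 5 were called lower each day, while in *M. musculus* they were 71005 and 9141 to 11084, and 9 of 9 were called. With the best component taken one way, the *A. cahirinus* calls over the 4 days went from 20 to 32 lower and from 0 to 3 higher. Their mean log2 changes ran from -1.13 for *Ryr1*, the calcium release channel, to -3.61 for *Tnni2*, a fast troponin, in *A. cahirinus*. In *M. musculus* they ran from -1.97 for *Acta1*, skeletal actin, which had no reciprocal component in *A. cahirinus*, to -3.50 for *Myh4*, fast myosin. Fat markers summed to 6161 at D0 and 1239 to 1607 afterwards in *A. cahirinus*, with 7 of 7 called lower each day, while the *M. musculus* sum was 2949 and 1386 to 2130, with 6, 7, 6 and 2 of 7 lower. Among them were *Lep*, the hormone leptin, with -3.80 in *A. cahirinus*, *Cfd*, the complement factor adipsin, with -1.24 there against -2.19 in *M. musculus*, and *Lpl*, lipoprotein lipase, with -0.69 in *M. musculus* (mean log2 changes). Schwann cell markers summed to 5709 and 1435 to 2092 in *A. cahirinus*, with 7, 7, 8 and 7 of 8 called lower. In *M. musculus* they summed to 3686 at D0 and 1171 to 2283 afterwards, with 7, 6, 6 and 4 of 8 lower. *S100b*, a calcium-binding protein, was the lowest in *M. musculus* (-2.89), while *Sox10*, a transcription factor of the lineage, had the mean log2 changes nearest to 0 (-0.92 and 0.21). In *M. musculus* the Schwann cell, fat and cartilage sums, like *A2m*, were lowest at D5 and highest after injury at D20. This was read off after the values were seen. *Lpl* made up most of the fat sum (2325 of 2949 at D0). *Lpl*, *Plin1* and *Cidec* were lowest at D5, but *Adipoq*, *Lep* and *Cfd* at D15 and *Pparg* at D10. The cartilage sum at D20 (7117) was above that at D0 (6669), and the muscle sum was lowest at D20 (9141). Whether these cells bear on the *A2m* values was not tested.

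Cartilage markers were mostly lower at D5 (8 of 10 called in *A. cahirinus*, 8 of 12 in *M. musculus*), and their sum went from 8487 to 4786 in *A. cahirinus* while that of *M. musculus* went from 6669 to 3452. By D20 the sums were 5341 against 7117. On the 4 days 8, 7, 4 and 5 of 10 were called lower and 1, 1, 1 and 3 higher in *A. cahirinus*, and the calls higher in all went from 6 to 10 with the best component taken one way. In *M. musculus* 8, 4, 4 and 3 of 12 were called lower and 3, 3, 2 and 6 higher. *Col9a2*, a chain of collagen IX, had the highest mean log2 change in *A. cahirinus* (1.15) and *Snorc*, a chondrocyte proteoglycan, the lowest (-2.72). In *M. musculus* these were *Col2a1*, cartilage collagen II (2.62), which had no reciprocal component in *A. cahirinus*, and *Chad*, a cartilage matrix protein (-2.40). Macrophage markers had their highest sum at D5, which was 8565 in *A. cahirinus* (1643 at D0) while that of *M. musculus* was 8017 (2422 at D0). At D20 that sum was 1444 in *A. cahirinus*, while it was 5776 in *M. musculus*. Of 5 measured in *A. cahirinus* 4, 3, 2 and 0 were called higher and 0, 0, 0 and 1 lower (*Cd163* at D20, -0.81), and of 7 in *M. musculus* 6, 5, 6 and 7 were called higher. The *A. cahirinus* calls higher over the 4 days went from 9 to 14 with the best component taken one way. *Adgre1*, a macrophage surface antigen, had a mean log2 change of 2.62 in *A. cahirinus*, *Lyz2*, lysozyme, had 2.12 in *M. musculus*, and *Cd163*, a scavenger receptor, had the lowest in both (0.51 and 0.18). The *Lyz2* component among the 5 of *A. cahirinus* had 100% identity to the mouse sequence and means of 0.924 to 4.11, without a call. Whether such a component is the spiny mouse gene was not tested.

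Fibroblast markers summed to 34574 at D0 and 29889, 132361, 178112 and 138589 afterwards in *A. cahirinus*. The sum was thus below D0 at D5, when *A2m* was already higher. Most of it came from the matrix genes *Dcn* (13924 at D0), *Col3a1* (13469) and *Col1a1* (6431), so it is no count of fibroblasts. The *Dcn* component had 99.7% identity to the mouse sequence, and whether it is the spiny mouse gene was not tested. At D5 *Dcn* was called lower (-0.62), and *Col1a1* (-0.58) and *Col3a1* (0.25) were not called. Of 6 measured in *A. cahirinus* 0, 3, 3 and 3 were called higher and 2, 2, 1 and 0 lower. The 6 include *Lum*, whose component had 100% identity to the mouse sequence and means of 0.339 to 4, without a call. In *M. musculus* 4, 5, 5 and 4 of 6 were called higher and 0 lower, and the sum went from 38779 to between 158269 and 349215. *Col3a1*, collagen III, was the highest in *A. cahirinus* (mean log2 change 2.22), *Col1a1*, a chain of collagen I, in *M. musculus* (3.47), and *Dcn*, the proteoglycan decorin, the lowest in both (-0.41 and 0.28). Endothelial markers summed to 4926 at D0 and 3289 to 5187 afterwards in *A. cahirinus*, with 1, 2, 4 and 8 of 10 called lower and 2, 1, 1 and 0 higher, while the *M. musculus* sum was 1877 and 2786 to 3724, with 8, 5, 6 and 6 of 10 called higher and 0 lower. *Vwf*, von Willebrand factor (0.71), and *Pecam1*, the adhesion molecule CD31 (-0.55), marked the range of mean log2 changes in *A. cahirinus*, and the receptors *Tie1* (1.60) and *Flt1* (-0.12) that in *M. musculus*. Smooth muscle and pericyte markers summed to 11205 at D0 and 9210 to 13255 afterwards in *A. cahirinus*, with members called in both directions (1, 4, 4 and 2 of 9 higher, 4, 2, 3 and 3 lower). In *M. musculus* the sum was 4697 at D0 and 5350 to 6272 afterwards, with 5, 6, 6 and 4 of 10 called higher and 2, 1, 1 and 2 lower. *Des*, the filament protein desmin, was the lowest in both species (-1.25 and -1.61), and *Cnn1*, calponin, was the highest in *A. cahirinus* (1.52). In *M. musculus* the highest was *Acta2*, smooth muscle actin (1.83), which had no reciprocal component in *A. cahirinus*.

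**Figure D5:**
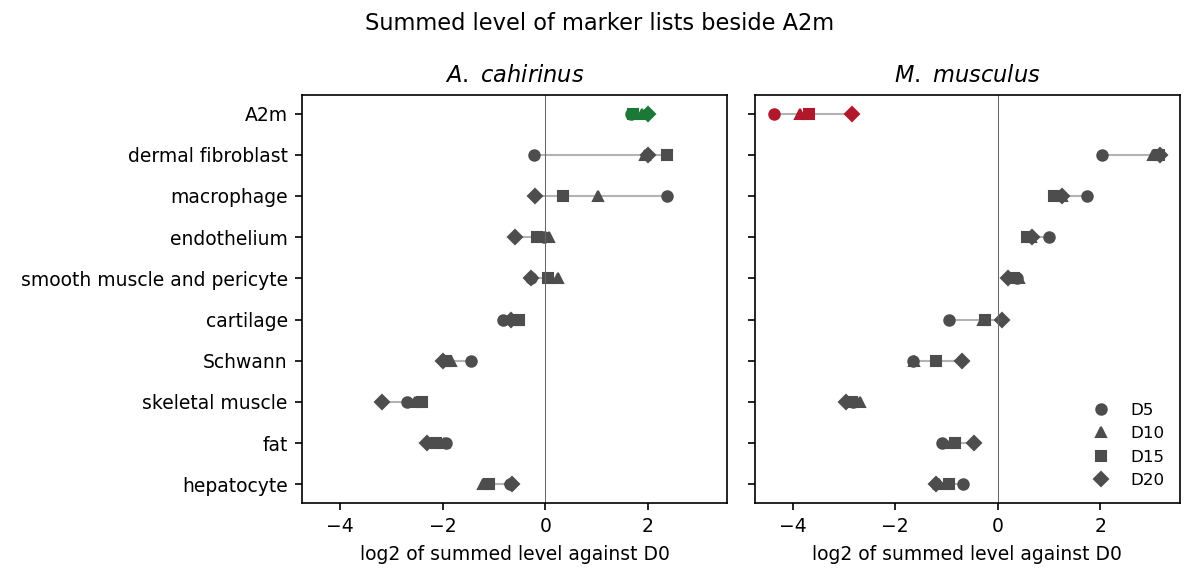
Log2 of the summed mean of each cell type marker list against D0 (horizontal axis) in *A. cahirinus* and *M. musculus*, with *A2m* at the top in colour. Each symbol is 1 day. The muscle sums lie at -3.19 to -2.40 in *A. cahirinus*, against -2.96 to -2.68 in *M. musculus*, whereas *A2m* lies at 1.68 to 2.01 and -4.36 to -2.84.

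Summed over all features on the scale of the D5 table, the means came to 14492272 normalized counts per library at D0 and 14201998 to 16318349 afterwards in *A. cahirinus*. Those of *M. musculus* came to 7716931 at D0 and 7440302 to 7993235 afterwards. The *A2m* values rested on about 433 to 1738 reads per group in *A. cahirinus*, and in *M. musculus* on about 1796 at D0 and 87 to 251 afterwards. The control gene of the study, *Tbp*, a general transcription factor, had log2 changes of 0.06, -0.22, -0.08 and -0.18 in *A. cahirinus*, against -0.50, -0.48, -0.44 and -0.52 in *M. musculus*, with no call. Relative to *Tbp*, the *A2m* change became 1.62 to 2.19 in *A. cahirinus*, against -3.86 to -2.32 in *M. musculus*.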

How the data were processed

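RNA of ear tissue was sequenced by the authors as strand-specific, paired-end libraries. They assembled the *A. cahirinus* transcriptome, estimated expression with RSEM (build mm10 for *M. musculus*, per the labels) and compared each day with D0 in EBSeq. The deposited tables give a fold change as the ratio of D0 to the day, in raw and posterior form, and a posterior probability, a score from 0 to 1. These are the authors' own comparisons and were used because the tables hold nothing else. The deposited BLASTN table gives identity in percent, and other columns used were the authors' alignment length in bases and bit score.

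Group means were recovered from the 2 ratios of a table (a constant of 0.01 is added to both means in the raw ratio) and put on the scale of the D5 table. D0 means of a species agreed within 0.00057 (log2, 99th percentile). Signs were turned so that positive is higher after injury. Libraries were counted from the steps between low means. Counting intervals (exact Poisson, 95%) assumed 1 read per normalized count and cover counting error only.

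*M. musculus* names were inferred by placing the gene numbers along the reference order, anchored on 1992 known numbers from the study's supplement, after matching transcripts to GENCODE vM21 with minimap2 2.31-r1302. Of 1617 known numbers placed when held out, 1611 were right (99.6%), and 375 were not placed. The settings were adjusted over several versions with this share in view, so it may be too favourable. *A2m* received number 24197 with a probability of 0.99575, and the same number in 10 of 10 held-out parts. Genes were paired as reciprocal best hits by bit score. Hits to *M. musculus* transcripts without a placed number were left out of the pairing (49654 of 61642 transcripts were placed). A component could thus be paired with a relative of a gene that was not placed.

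The gene, the lists of 184 genes in 16 groups and the rules were chosen with earlier results of these data known. Named were *A2m*, its relatives and receptors, the highest and lowest member by mean log2 change in each other list (mean of at least 10), *Il6*, *Stat3*, *Socs3*, *Tgfb1*, *Mmp13*, *Serpina3n*, *Lcn2*, the 10 nearest genes and *Tbp*. *Socs3* and *Serpina3n* had no placed number and were not analysed here, and 1 other gene is not reported here. Where genes were at or near 0, list medians used members above a mean of 1 (3 reads over 3 libraries), with lower means set to 1. Alternatives are given in the closing section. No values per animal were used, so no test between animals was run. Simulated data with known answers were used to check the mean recovery, the library steps and the pairing. The software was Python 3.11.15 with Biopython 1.88, pandas 2.3.3, SciPy 1.17.1, NumPy 2.4.6 and matplotlib 3.10.9.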

Additional observations from a re-analysis of the deposited data

Results flagged for a closer look

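The *A2m* log2 change was above 0 on all 4 days in *A. cahirinus* and below 0 on all 4 days in *M. musculus*, with a mean difference of 5.50 between the species. It is listed because the groups moved in opposite directions. The difference itself was not tested, since no values per animal were used, and *A2m* was chosen for this pattern.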

How the results depend on the processing

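The *A2m* change kept its direction in all 8 comparisons under the posterior fold change, a pseudocount of 1, centring on the median paired gene and expression relative to *Tbp*, none of which recomputes the deposited probability behind a call. The calls held at a threshold of 0.99. The species difference was 5.12 to 5.72 over the alternatives, lowest relative to *Tbp* and highest without D20. Without D15, the day with 2 library steps in *A. cahirinus*, it was 5.54. Adding the family in both species, an alternative chosen after the data were seen, gave 5.19. Summing all components with *A2m* as best hit gave the same values, since there was 1 such component. Of the 64 counts of calls in the gene lists, all stayed within 1.5 times at a threshold of 0.99 and at a least mean of 10, and 5 moved further with the one-way best component in *A. cahirinus*. These were calls over the 4 days, for relatives from 0 to 2 lower, muscle from 20 to 32 lower and from 0 to 3 higher, cartilage from 6 to 10 higher and macrophages from 9 to 14 higher. The nearest genes depended on the measure, with 0 of 10 shared under Pearson correlation, which ignores size, and 5 of 10 without a least mean. No paired analysis was possible because the tables give group values with no replicate numbers, and for the same reason no replicate was left out in turn.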
